A study of Saccharomyces cerevisiae with 12 samples.

Results

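HEL2 and 8 of its partners in ribosome-associated quality control in budding yeast are described here: ASC1, SLH1, CUE3, RQT4, RKR1, RQC1, RQC2 and VMS1. They were chosen by name and found by their identifiers, and all 9 stood among the 7109 gene identifiers of the count table and among the 6463 genes tested. The study sequenced poly(A) RNA of 12 cultures, 3 for each of 4 groups. The groups were ∆hel2 cells given methyl methanesulfonate (MMS) for 90 min, untreated ∆hel2 cells, wild-type cells given MMS for 90 min, and untreated wild-type cells. All 4 groups had the BY4741 background, a laboratory strain with auxotrophic deletions, and grew in the rich medium YPD. MMS alkylates nucleic acids, RNA as well as DNA. The labels state no MMS dose and do not say whether the deletion strain was a single clone. Libraries are named by group and replicate number, with WT for wild type.

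A ribosome that stops on a messenger RNA is run into by the ribosome behind it, and the collided pair is the signal that this pathway reads. Hel2, a RING ubiquitin ligase, recognises the collided pair and marks proteins of the small subunit, and Asc1, a scaffold protein on that subunit, is needed for this. The helicase Slh1 and the ubiquitin-binding proteins Cue3 and Rqt4 form the RQT complex, which pulls the stalled ribosome apart. The nascent chain left in the large subunit is then handled by Rqc1, Rqc2 and the ligase Rkr1, also called Ltn1, together with the ATPase Cdc48, and Vms1 releases the chain from its transfer RNA.

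The libraries held 36472686 to 53638964 counts. Levels are given as CPM, counts relative to a library total scaled by TMM, a method that sets the bulk of genes equal between libraries. A gene was called at a Benjamini-Hochberg adjusted p under 0.05 over all 6463 genes in the quasi-likelihood test of edgeR, and log2 fold changes carry an approximate standard error (SE, n = 3 per group). Of the auxotrophic markers, LEU2 had 286 to 615 CPM in ∆hel2 libraries and 0.0521 to 0.862 CPM in wild-type libraries. The strains thus differed in LEU2 as well as HEL2, and every comparison of strains below includes both differences. HIS3 had 90 to 269 CPM and MET17 had 0.277 to 2.3 CPM over the 12 libraries. URA3 had 378 counts in WT MMS replicate 2 and 2 to 12 counts in the other libraries. The a-cell genes MFA1, MFA2 and STE2 had 319 to 1251 CPM over the 12 libraries, against 1.04 to 13.3 CPM for the alpha-cell genes MF(ALPHA)1, MF(ALPHA)2 and STE3. WT MMS replicate 1 had the smallest total and the lowest value of its group for 7 of the 9 genes. Scaling by library size alone shifted the median log2 fold change of all genes to 0.61 for MMS in ∆hel2 cells and 0.33 for MMS in wild-type cells. For ∆hel2 against wild type that median became 0.37 and 0.11 with and without MMS. The interaction of strain and MMS, the MMS effect in ∆hel2 cells minus that in wild-type cells, had a median of 0.23. The changes below are relative to the bulk of genes.

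HEL2 (YDR266C), the deleted gene, had 35, 39 and 29 counts in MMS-treated ∆hel2 libraries and 27, 19 and 20 counts in untreated ∆hel2 libraries. It had 928, 1522 and 2185 counts in MMS-treated and 2105, 1869 and 2431 counts in untreated WT libraries. Every ∆hel2 library lay far below every wild-type library, and so few counts give no measure of how HEL2 responds to MMS in that strain. Among wild-type cultures HEL2 had 28.6, 33.9 and 41.4 CPM with MMS, against 51.8, 54.7 and 63.4 CPM without, and the groups did not overlap. With MMS, HEL2 fell by 0.71 ± 0.14 on the log2 scale in wild-type cells (edgeR, adjusted p = 0.000611), with a value of -0.59 without WT MMS replicate 1. Under library-size scaling the value was -0.38 and the call was lost (adjusted p = 0.116). In RNA pooled from a culture, fewer cells that express a gene and less RNA per cell cannot be told apart.

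Of the 9 genes, 4 rose with MMS in ∆hel2 cells (CUE3, RQT4, RQC1 and RQC2), where 39.2% of all tested genes rose, and 2 fell (ASC1 and RKR1), where 36.2% fell. In all, 6 of 9 were called there and for 6 of 9 the treated and the untreated libraries were apart, against 75.4% and 81.4% of all genes. Without HEL2, which is deleted in those cells, these were 6 of 8 and 6 of 8. With MMS in wild-type cells 2 rose (SLH1 and RQC2), where 35.6% of all genes rose, and 3 fell (HEL2, ASC1 and RKR1), where 34.2% fell. That made 5 of 9 called and 5 of 9 without overlap, against 69.9% and 71.4% of all genes. In ∆hel2 cells the median absolute log2 fold change was 0.44 for the 9 and 0.59 without HEL2, against 0.74 over all genes. In wild-type cells that of the 9 was 0.32, against 0.61. Their median log2 fold change was 0.27 in ∆hel2 cells, against 0.06 over all genes, and -0.24 in wild-type cells, against 0.02.

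The interaction, ∆hel2 effect minus wild-type effect, was called for 5 of the 9, with HEL2, CUE3, RQT4 and RQC1 higher and ASC1 lower. The value of HEL2 rests on 19 to 39 counts per ∆hel2 library and is no measure of a response there; without HEL2, 4 of 8 were called, 3 higher and 1 lower. Of all genes 40% were called, 18.6% higher and 21.5% lower. Of the called genes, 52% were higher for MMS in ∆hel2 cells, 51% for MMS in wild-type cells and 46.4% for the interaction, against 74.4, 69.3 and 66.6% under library-size scaling. The comparisons share libraries.

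**Figure D1:**
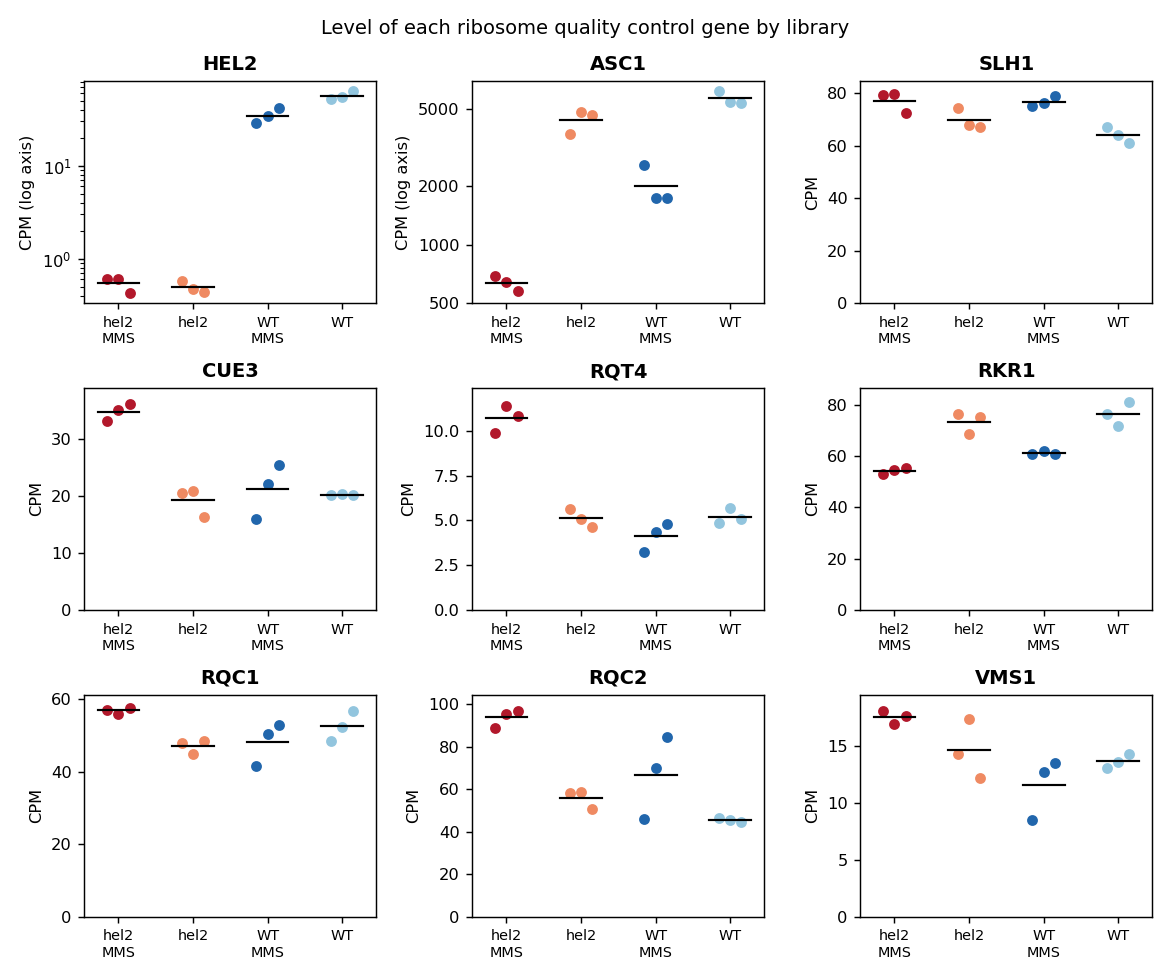
Level of each of the 9 genes in CPM, with HEL2 and ASC1 on log axes, in MMS-treated and untreated ∆hel2 cells (hel2) and MMS-treated and untreated wild-type cells (WT); each point is a library and each black line the mean of 3. The treated ∆hel2 libraries lie above the other 9 for RQT4, at 9.9 to 11.4 CPM, and CUE3, at 33.1 to 36.1 CPM, and below them for ASC1, at 578 to 690 CPM.

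ASC1 (YMR116C) encodes the yeast counterpart of mammalian RACK1 and had the highest level per length of the 9 genes in each group. It had 690, 643 and 578 CPM in MMS-treated ∆hel2 cells, against 3747, 4821 and 4690 CPM in untreated ∆hel2 cells. Wild-type libraries had 2577, 1737 and 1742 CPM with MMS, against 6220, 5492 and 5397 CPM without. No group overlapped another, and the treated ∆hel2 libraries were the lowest. With MMS, ASC1 fell in both strains, at -2.79 ± 0.16 on the log2 scale in ∆hel2 cells (edgeR, adjusted p = 4.08e-09) and -1.50 ± 0.16 in wild-type cells (adjusted p = 1.93e-06). The fall was deeper in the deletion strain, with an interaction of -1.30 ± 0.22 (adjusted p = 0.000608), or -1.07 without WT MMS replicate 1. Under MMS, ASC1 was lower in ∆hel2 than in wild-type cells, at -1.66 ± 0.16 (adjusted p = 1.71e-06). Without MMS the log2 fold change between the strains was -0.37 ± 0.15 and did not pass (adjusted p = 0.176), although it did without WT MMS replicate 1 (-0.38, adjusted p = 0.0205). The gene of the small nucleolar RNA snR24 lies inside ASC1 in the annotation and had a line of its own, with 67 to 209 counts per library, against 39132 to 252562 for ASC1.

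Asc1 is a constituent of the small subunit, so ASC1 was set beside the 56 tested genes of small subunit proteins (symbols RPS). All 56 fell with MMS in both strains, where 36.2% of all genes fell in ∆hel2 cells and 34.2% in wild-type cells. The median log2 fold change of the 56 was -3.07 in ∆hel2 cells and -2.32 in wild-type cells. ASC1 fell less than most of them, since 47 of the 56 had a lower value than ASC1 in ∆hel2 cells and 53 in wild-type cells. In the interaction 4 of the 56 lay below ASC1, the median was -0.77, and 41 were called lower, as were 21.5% of all genes. The interaction of ASC1 was less deep without WT MMS replicate 1, as given above. Its place among the 56 was not taken again without that library. Under MMS 51 of the 56 were lower in ∆hel2 than in wild-type cells and 1, RPS9A, was higher, with a median of -1.04. Of all genes 29.8% were lower there and 32% higher.

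The level of ASC1 over the median of the 56 genes, taken within a library, does not depend on scaling. The log2 ratio was 1.65, 1.66 and 1.57 in treated ∆hel2 cells and 1.00, 1.61 and 1.41 in untreated ∆hel2 cells. It was 2.88, 1.86 and 2.16 in treated wild-type cells and 1.68, 1.32 and 1.47 in untreated ones. The ratio was higher in each treated wild-type library than in any untreated one, and highest in replicate 1, while the ∆hel2 groups overlapped. Treated minus untreated, the mean log2 ratio differed by 0.29 in ∆hel2 cells (exact permutation test, two-sided p = 0.2) and by 0.81 in wild-type cells (exact permutation test, p = 0.1, the smallest that 3 against 3 libraries allow). Without ∆hel2 replicate 1 the difference in ∆hel2 cells was 0.12, and without WT MMS replicate 1 that in wild-type cells was 0.52.

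**Figure D2:**
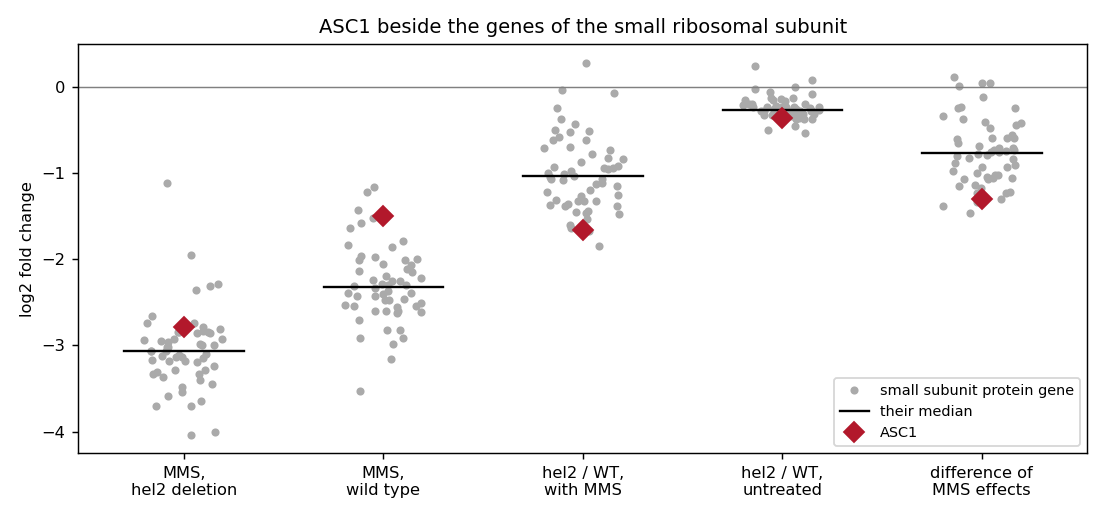
Log2 fold change of ASC1 (diamonds) and of the 56 small subunit protein genes (points, spread sideways for display only; line, their median) in 5 comparisons. ASC1 lies above the median for MMS in either strain, at -2.79 and -1.50, and below it for the interaction, at -1.30 against -0.77. All 12 libraries are in these fits, and the interaction of ASC1 was less deep without WT MMS replicate 1.

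The RQT genes differed in how they moved with MMS. RQT4 (YKR023W), which encodes a ubiquitin-binding subunit, had 9.9, 11.4 and 10.8 CPM in treated ∆hel2 cells, against 5.66, 5.06 and 4.64 CPM in untreated ∆hel2 cells. It had 3.23, 4.34 and 4.77 CPM in treated wild-type cells and 4.85, 5.67 and 5.06 CPM in untreated ones. The treated ∆hel2 libraries lay above the other 9, and the treated wild-type libraries lay just below the untreated ones. RQT4 rose by 1.06 ± 0.15 in ∆hel2 cells (edgeR, adjusted p = 2.14e-05). Its value in wild-type cells, -0.33 ± 0.15, did not pass (adjusted p = 0.069), but passed with median-ratio scaling (RLE; -0.35, adjusted p = 0.0461), with DESeq2 (-0.34, 0.0386) and without WT MMS replicate 3 (-0.45, 0.0283). Without WT MMS replicate 1, the lowest of the 12, it was -0.19 (adjusted p = 0.232). Its interaction was 1.39 ± 0.21 (adjusted p = 0.000279), and it stayed called at 1.26 to 1.61 over 17 alternatives. RQT4 had 105 to 731 counts per library, the fewest of the 8 partners in each.

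CUE3 (YGL110C), which encodes a protein with a ubiquitin-binding CUE domain, had 33.1, 35 and 36.1 CPM in treated ∆hel2 cells, against 20.5, 20.9 and 16.3 CPM in untreated ∆hel2 cells. Its wild-type libraries had 15.9, 22.1 and 25.5 CPM with MMS and 20.1, 20.3 and 20.1 CPM without. The treated ∆hel2 libraries again lay above the other 9, and the untreated wild-type libraries fell inside the range of the treated ones. CUE3 rose by 0.85 ± 0.15 in ∆hel2 cells (edgeR, adjusted p = 0.000153), and its 0.07 ± 0.15 in wild-type cells did not pass (adjusted p = 0.694) and was 0.23 without WT MMS replicate 1 and -0.09 without WT MMS replicate 3. For CUE3 the interaction was 0.78 ± 0.21 (adjusted p = 0.00987), or 0.62 without WT MMS replicate 1.

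SLH1 (YGR271W), the helicase gene of the complex, had 79.2, 79.7 and 72.3 CPM in treated ∆hel2 cells, against 74.2, 67.9 and 67.2 CPM in untreated ∆hel2 cells, with overlap. For wild-type cells the values were 75.2, 76.4 and 78.8 CPM with MMS and 67.2, 64.1 and 61.2 CPM without, with no overlap. SLH1 rose by 0.26 ± 0.07 in wild-type cells (edgeR, adjusted p = 0.0042). Its 0.14 ± 0.07 in ∆hel2 cells did not pass (adjusted p = 0.0706), but passed under library-size scaling (0.70, adjusted p = 8.79e-05) and without ∆hel2 MMS replicate 3 (0.0409), ∆hel2 replicate 1 (0.0354) or WT MMS replicate 1 (0.0487). The interaction, -0.12 ± 0.10, did not pass (adjusted p = 0.361).

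Ratios within a library set these genes against each other without scaling. On counts per kilobase, the log2 ratio of RQT4 to SLH1 was -1.11, -0.92 and -0.86 in treated ∆hel2 cells and -1.82, -1.86 and -1.96 in untreated ∆hel2 cells. It was -2.65, -2.25 and -2.15 in treated and -1.90, -1.61 and -1.71 in untreated wild-type cells. Each treated library was higher than every untreated one in ∆hel2 cells and lower than every untreated one in wild-type cells, with mean differences of 0.92 and -0.61 (exact permutation test, two-sided p = 0.1 each, the smallest the design allows). The log2 ratio of CUE3 to SLH1 was 0.40 to 0.65 in treated and -0.39 to -0.05 in untreated ∆hel2 cells, with no overlap. It was -0.59 to 0.03 in treated and -0.09 to 0.05 in untreated wild-type cells, which overlapped.

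**Figure D3:**
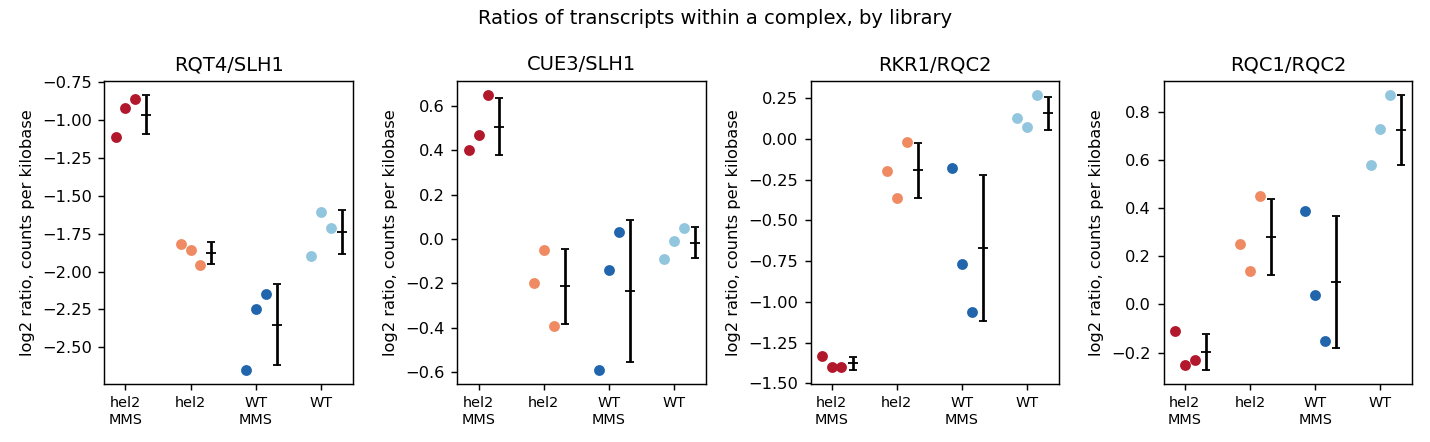
Log2 ratios of counts per kilobase between genes of the RQT complex (RQT4/SLH1, CUE3/SLH1) and of the RQC complex (RKR1/RQC2, RQC1/RQC2); each point is a library, and the bars show mean ± SD of 3. RQT4/SLH1 averaged -0.96 in treated ∆hel2 cells, against -1.88 in untreated ones, and -2.35 in treated wild-type cells, against -1.74 in untreated ones.

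The neighbours of RQT4 on its chromosome were NTR2 (YKR022C) and DBP7 (YKR024C). NTR2, a gene of spliceosome disassembly, had 13.2, 13 and 14.3 CPM in treated ∆hel2 cells and 3.51 to 7.55 CPM in the other 9 libraries, which it did not overlap. Its interaction was 1.33 ± 0.29 (edgeR, adjusted p = 0.00278), in the direction of RQT4. DBP7, a helicase gene of ribosome assembly, fell with MMS, at -2.21 ± 0.11 in ∆hel2 cells (edgeR, adjusted p = 5.21e-10) and -1.72 ± 0.10 in wild-type cells (adjusted p = 8.87e-09).

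Beside CUE3, YGL108C, which has no standard name, had 2.54 to 2.82 CPM in treated ∆hel2 cells and 0.81 to 1.7 CPM in the other libraries. Its interaction was 1.17 ± 0.38 (edgeR, adjusted p = 0.0251), and the call was lost without ∆hel2 MMS replicate 3 (0.0522), WT MMS replicate 3 (0.0574), WT replicate 2 (0.055) or WT replicate 3 (0.0558). NSA1, on the other side of CUE3 and needed for ribosome assembly, fell with MMS, at -1.70 ± 0.14 in ∆hel2 cells (edgeR, adjusted p = 9.38e-08) and -1.28 ± 0.13 in wild-type cells (adjusted p = 1.99e-06). SWR1, beside RQC1, had 6964 counts in WT MMS replicate 2 and 748 and 1608 counts in the other two libraries of that group. Neighbours of 8 of the 9 genes were tested, 16 in all, and none of RKR1. For the interaction 5 of the 16 were called higher and 4 lower, where 18.6% of all genes were higher and 21.5% lower. Among those called, 3 went the same way as the called gene beside them (NTR2, YGL108C and PEX10). PEX10 lies beside the deleted HEL2, whose interaction is no measure of a response in ∆hel2 cells. The opposite way went 2 (DBP7 beside RQT4, and MGR3 beside ASC1). The others lay beside genes that were not called. Called pairs went the same way in 4 cases and opposite ways in 4 for MMS in ∆hel2 cells, in 2 and 4 for MMS in wild-type cells, and in 4 and 7 for ∆hel2 against wild type under MMS. The last counts include the pairs of HEL2, whose level the deletion sets. There CIA1 (-0.20) went the same way as HEL2 and PEX10 (0.45) the opposite way. The strand setting of the counting is not stated, and a share of neighbours' reads in these counts was not tested.

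RQC2 and RKR1 moved in opposite directions with MMS, and each moved the same way in both strains. RQC2 (YPL009C), whose product adds alanine and threonine tails to stalled chains, had 88.6, 95.5 and 96.8 CPM in treated ∆hel2 cells, against 58, 58.7 and 50.8 CPM in untreated ∆hel2 cells. In wild-type cells it had 45.8, 70.1 and 84.3 CPM with MMS and 46.4, 45.3 and 44.7 CPM without. The ∆hel2 groups were apart, whereas WT MMS replicate 1 lay inside the untreated range and the other two treated libraries lay above it. RQC2 rose by 0.74 ± 0.16 in ∆hel2 cells (edgeR, adjusted p = 0.000867) and by 0.55 ± 0.16 in wild-type cells (adjusted p = 0.0076), or 0.76 without WT MMS replicate 1. The interaction, 0.19 ± 0.23, did not pass (adjusted p = 0.525) and was -0.01 without that library and 0.39 without WT MMS replicate 3. Without WT MMS replicate 3 the rise in wild-type cells was 0.35 (adjusted p = 0.0438).

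RKR1 (YMR247C), the ligase gene, had 52.9, 54.4 and 55.1 CPM in treated ∆hel2 cells, against 76.2, 68.6 and 75.3 CPM in untreated ∆hel2 cells. Its wild-type values were 60.9, 61.9 and 60.8 CPM with MMS and 76.4, 71.7 and 81 CPM without. Treated and untreated libraries did not overlap in either strain. RKR1 fell, at -0.44 ± 0.07 in ∆hel2 cells (edgeR, adjusted p = 4.58e-05) and -0.32 ± 0.07 in wild-type cells (adjusted p = 0.000774). Under library-size scaling both calls were lost, at 0.12 (adjusted p = 0.333) and -0.01 (adjusted p = 0.964). The interaction, -0.12 ± 0.09, did not pass (adjusted p = 0.337).

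The ratio of RKR1 to RQC2 within a library does not depend on scaling. On the log2 scale it was -1.33, -1.40 and -1.40 in treated and -0.20, -0.36 and -0.02 in untreated ∆hel2 cells. It was -0.18, -0.77 and -1.06 in treated and 0.13, 0.07 and 0.27 in untreated wild-type cells. The treated libraries were below the untreated ones in each strain, and the treated ∆hel2 libraries were below all others. The differences with MMS were -1.18 in ∆hel2 and -0.83 in wild-type cells, and the difference between untreated ∆hel2 and untreated wild-type cells was -0.35, also with no overlap (exact permutation test, two-sided p = 0.1 each). VMS1 to RQC2 was also lower with MMS, differing by -0.47 in ∆hel2 and -0.77 in wild-type cells on the log2 scale, and RQC1 to RQC2 by -0.47 and -0.63 (exact permutation test, p = 0.1 each). Between untreated ∆hel2 and untreated wild-type cells, RQC1 to RQC2 differed by -0.45 without overlap (exact permutation test, p = 0.1). VMS1 to RQC2 differed there by -0.21, with overlap (exact permutation test, p = 0.2). All these ratios share RQC2, which rose with MMS, so they are not separate observations. Neither VMS1 nor RQC1 was itself called lower with MMS in either strain.

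RQC1 (YDR333C), whose product helps bring Cdc48 to the large subunit, had 57.2, 56.1 and 57.6 CPM in treated ∆hel2 cells, against 47.9, 45 and 48.5 CPM in untreated ∆hel2 cells. In wild-type cells it had 41.7, 50.4 and 52.8 CPM with MMS and 48.4, 52.3 and 56.9 CPM without. The ∆hel2 groups were apart and the wild-type groups overlapped. RQC1 rose by 0.27 ± 0.09 in ∆hel2 cells (edgeR, adjusted p = 0.0138), a call lost without ∆hel2 replicate 2 (0.24, adjusted p = 0.0528). In wild-type cells -0.12 ± 0.09 did not pass (adjusted p = 0.244), with -0.03 without WT MMS replicate 1, -0.19 without WT MMS replicate 3 and -0.06 without WT replicate 3. For RQC1 the interaction was 0.39 ± 0.13 (adjusted p = 0.0252), lost without ∆hel2 MMS replicate 3 (0.0555), ∆hel2 replicate 2 (0.0613) or WT replicate 3 (0.0689).

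VMS1 (YDR049W), the gene of the chain-releasing factor, had 18.1, 16.9 and 17.6 CPM in treated ∆hel2 cells, against 14.3, 17.4 and 12.2 CPM in untreated ∆hel2 cells. Wild-type cultures had 8.53, 12.7 and 13.5 CPM with MMS and 13.1, 13.6 and 14.3 CPM without. Treated and untreated libraries overlapped in both strains. Neither MMS effect passed, at 0.27 ± 0.16 in ∆hel2 cells (edgeR, adjusted p = 0.153) and -0.24 ± 0.16 in wild-type cells (adjusted p = 0.215). Without WT MMS replicate 1, which had the lowest VMS1 value, the wild-type value was -0.07 and the interaction 0.34 (adjusted p = 0.664 and 0.136). The ∆hel2 value was 0.15 without ∆hel2 replicate 3 (adjusted p = 0.447), and it passed without ∆hel2 replicate 2 (0.41, adjusted p = 0.0469), without WT MMS replicate 1 (0.27, 0.0447) and under library-size scaling (0.82, 0.00459). For VMS1 the interaction was 0.50 ± 0.23 (adjusted p = 0.101), and it passed without ∆hel2 replicate 2 (0.64, adjusted p = 0.0459).

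**Figure D4:**
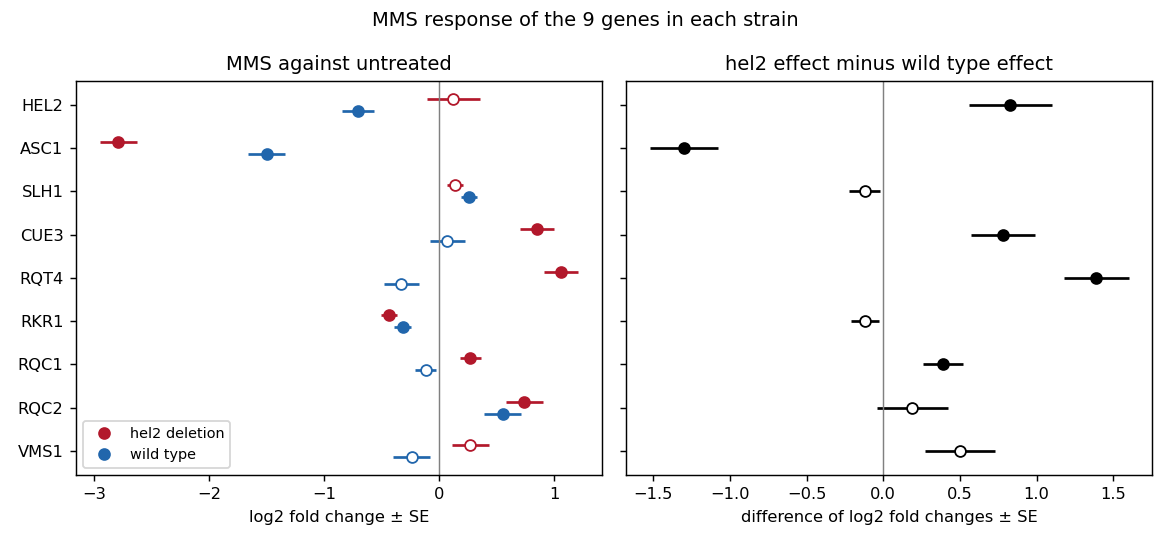
Left, log2 fold change with MMS of each gene in ∆hel2 and in wild-type cells; right, the ∆hel2 effect minus the wild-type effect. Bars are ± SE, and filled points have an adjusted p under 0.05. In the right panel ASC1 lies at -1.30 and RQT4 at 1.39, while SLH1, RKR1, RQC2 and VMS1 have open points.

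Compared directly under MMS, ∆hel2 cells had more CUE3, RQT4, RQC1, RQC2 and VMS1 than wild-type cells and less HEL2, ASC1 and RKR1. These were 5 of 9 higher and 3 lower, where 32% of all genes were higher and 29.8% lower, 61.9% in all. Without HEL2, whose level the deletion sets, they were 5 of 8 higher and 2 lower. The log2 fold change of HEL2 was -5.98 ± 0.19 (edgeR, adjusted p = 3.32e-10). RQT4 was higher by 1.37 ± 0.15 (edgeR, adjusted p = 5.52e-06), CUE3 by 0.71 ± 0.15 (adjusted p = 0.000974) and VMS1 by 0.60 ± 0.16 (adjusted p = 0.00624, or 0.42 without WT MMS replicate 1). RQC2 was higher by 0.49 ± 0.16 (adjusted p = 0.0174), or 0.28 without WT MMS replicate 1, and the call was lost without ∆hel2 MMS replicate 3 (0.0501) and with only the compared libraries in the fit (0.0673). RQC1 differed by 0.24 ± 0.09 (adjusted p = 0.0345) and RKR1 by -0.18 ± 0.07 (adjusted p = 0.0341), but these calls held in 11 of 18 and 12 of 18 alternatives. RQC1 was lost with RLE, with DESeq2, with only the compared libraries, without any 1 of the ∆hel2 MMS libraries (0.0754, 0.0639 and 0.0864 for replicates 1, 2 and 3) or WT MMS replicate 1 (0.14, adjusted p = 0.0931). RKR1 was lost without any 1 of the ∆hel2 MMS libraries (0.107, 0.0754 and 0.0632) or WT MMS replicates 2 (0.074) or 3 (0.0573), and was 0.17 under library-size scaling. SLH1 differed by 0.01 ± 0.07 (adjusted p = 0.955). The groups did not overlap for 8 of the 9 genes (7 of 8 without HEL2), and for 68.3% of all genes. Of the called genes 51.8% were higher, and 76.2% under library-size scaling.

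Without MMS, HEL2 was the 1 member of 9 called between ∆hel2 and wild-type cells, and it was lower. Of all genes 8.57% were called, 5.25% higher and 3.33% lower. None of the 8 partners was called by edgeR or by DESeq2. At an unadjusted p under 0.05 in edgeR, 1 of the 8 passed (ASC1), as did 22.6% of all genes. The log2 fold changes of the 8 lay between -0.37 and 0.30. RQC2, at 0.30 ± 0.16 (edgeR, adjusted p = 0.293), passed with only the compared libraries in the fit (adjusted p = 0.0221) and without WT MMS replicate 1 (0.0188). The groups did not overlap for HEL2, ASC1 and RQC2, and for 31.9% of all genes. Of the called genes 61.2% were higher, and 85.4% under library-size scaling.

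Levels compared between genes are per kilobase of gene length in the RefSeq annotation of assembly R64, which for ASC1 includes the part that holds snR24. ASC1 led in every group, with 517 ± 45.4 CPM per kilobase in treated ∆hel2 cells, 3584 ± 475 in untreated ∆hel2 cells, 1637 ± 392 in treated wild-type cells and 4625 ± 365 in untreated wild-type cells (SD, n = 3). HEL2 came next in untreated wild-type cells, at 29.5 ± 3.13 CPM per kilobase, and had rank 4 in treated wild-type cells, at 18 ± 3.35, where it overlapped RQC2, which in turn overlapped RQC1. RQC2 came next after ASC1 in treated ∆hel2 cells, at 30 ± 1.42 CPM per kilobase, and RQC1 did so in untreated ∆hel2 cells, at 21.7 ± 0.872, and in treated wild-type cells, at 22.2 ± 2.69. RQT4 was the lowest of the 8 partners in each group, at 6.71 ± 0.468 and 3.22 ± 0.32 CPM per kilobase in treated and untreated ∆hel2 cells and 2.58 ± 0.499 and 3.26 ± 0.269 in treated and untreated wild-type cells. CUE3 had rank 4 in treated ∆hel2 cells, at 18.5 ± 0.819 CPM per kilobase, where no neighbours in the order overlapped, and rank 6 in untreated ∆hel2 cells, at 10.3 ± 1.35, where it overlapped VMS1. In wild-type cells CUE3 had rank 7 with and without MMS, and overlapped SLH1 both times.

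The genes with the most similar profile were found by the root-mean-square difference of log2 CPM over 12 libraries, each profile centred on its own mean, among 3958 or 3959 named genes. For ASC1 they were RPL2B and RPP0, both of the large ribosomal subunit, at 0.0691 and 0.0948, where the median over genes was 1.25. For RQT4 they were END3, an endocytosis gene, and PRP40, a splicing gene, at 0.111 and 0.127 (median 0.686). For CUE3 they were CDC34, a ubiquitin-conjugating enzyme gene, and APN1, a base excision repair gene, at 0.1 and 0.104 (median 0.549). For SLH1 they were SEC18 and ALG1 (0.0748 and 0.0776), for RKR1 NUP188 and SEC26 (0.0367 and 0.0533), and for RQC1 TAH18 and ATP4 (0.0671 and 0.0781). For RQC2 they were UBC1 and BRF1 (0.111 and 0.116), and for VMS1 NUP57 and PBP4 (0.0757 and 0.0936). For HEL2, over the 6 wild-type libraries, they were FUN30 and UBP1 (0.058 and 0.0682). These are descriptions over libraries that share 4 conditions.

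A further 26 genes of the pathway, chosen by role, were all tested. With MMS 8 rose and 13 fell in ∆hel2 cells, and 6 rose and 17 fell in wild-type cells. Of all genes 39.2% rose and 36.2% fell in ∆hel2 cells, and 35.6% rose and 34.2% fell in wild-type cells. The median log2 fold change was -0.30 in ∆hel2 cells and -0.46 in wild-type cells, against 0.06 and 0.02 over all genes. Under MMS 10 were higher and 10 lower in ∆hel2 than in wild-type cells, where 32% of all genes were higher and 29.8% lower. The interaction was called for 11, with 2 higher (DOM34 and MOT2, the Not4 gene) and 9 lower, where 40% of all genes were called, 18.6% higher and 21.5% lower.

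The 4 genes of ribosomal proteins that Hel2 or the ligase Not4 mark all fell with MMS in both strains. Of all genes 36.2% fell in ∆hel2 cells and 34.2% in wild-type cells. RPS20 had 283, 268 and 263 CPM in treated and 2310, 1931 and 2071 CPM in untreated ∆hel2 cells. It had 371, 563 and 463 CPM in treated and 2029, 2329 and 2246 CPM in untreated wild-type cells. No treated library reached an untreated one. The log2 fold changes in ∆hel2 and wild-type cells were -2.96 ± 0.14 and -2.24 ± 0.14 for RPS20 (edgeR, adjusted p = 4.91e-10 and 9.81e-09), -2.85 ± 0.11 and -2.29 ± 0.11 for RPS3 (adjusted p = 8.8e-11 and 1.24e-09), and -3.44 ± 0.12 and -2.54 ± 0.12 for RPS7A (adjusted p = 4.24e-11 and 9.41e-10). The falls of these 3 were deeper in ∆hel2 cells, with interactions of -0.72 ± 0.19, -0.56 ± 0.15 and -0.91 ± 0.16 (adjusted p = 0.00847, 0.0104 and 0.000816). Of these, RPS20 and RPS3 lost the call under library-size scaling (-0.50, adjusted p = 0.15, and -0.32, adjusted p = 0.204). RPS7B, a close copy of RPS7A, changed by -2.31 ± 0.18 in ∆hel2 cells and -2.31 ± 0.18 in wild-type cells, with an interaction of 0.01 ± 0.24 (adjusted p = 0.988), or -0.20 without WT MMS replicate 1. Reads that match both copies can stand in the count of either.

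The 3 genes of the Cdc48 complex, which extracts ubiquitin-marked chains, all rose in both strains. Of all genes 39.2% rose in ∆hel2 cells and 35.6% in wild-type cells. CDC48 had 2163, 2255 and 2312 CPM in treated and 1071, 1164 and 1250 CPM in untreated ∆hel2 cells. It had 1912, 1776 and 1904 CPM in treated and 1074, 1165 and 1093 CPM in untreated wild-type cells, and no treated library overlapped an untreated one. In ∆hel2 and wild-type cells CDC48 rose by 0.95 ± 0.08 and 0.75 ± 0.08 (edgeR, adjusted p = 2.4e-07 and 3.32e-06). Its adaptor genes UFD1 and NPL4 rose by 2.10 ± 0.10 and 1.83 ± 0.10, and by 1.79 ± 0.08 and 1.52 ± 0.08. The interactions did not pass for CDC48 (0.20 ± 0.12), UFD1 (0.27 ± 0.14) or NPL4 (0.27 ± 0.11), with adjusted p of 0.191, 0.127 and 0.082 in edgeR. That of CDC48 passed under library-size scaling (0.45, adjusted p = 0.00771), and those of UFD1 and NPL4 without WT MMS replicate 3 (0.38 and 0.33, adjusted p = 0.0242 and 0.038).

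UBC5, the gene of a stress-induced ubiquitin-conjugating enzyme, had 193, 162 and 181 CPM in treated and 30.3, 41 and 40.7 CPM in untreated ∆hel2 cells. It had 248, 177 and 182 CPM in treated and 29.1, 29.5 and 29.7 CPM in untreated wild-type cells. The groups were far apart in both strains, and UBC5 rose by 2.26 ± 0.14 in ∆hel2 cells and 2.78 ± 0.15 in wild-type cells (edgeR, adjusted p = 8.64e-09 and 2.61e-09). The interaction, -0.53 ± 0.19 (adjusted p = 0.0478), was called in 5 of 17 alternatives and was -0.34 without WT MMS replicate 1 (adjusted p = 0.0703). The call was lost when any of 9 of the 12 libraries was left out.

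Among ribosome rescue genes, RLI1, whose product splits and recycles subunits, had 42.8, 42.5 and 37.8 CPM in treated ∆hel2 cells and 110, 111 and 94.1 CPM in treated wild-type cells, with no overlap. RLI1 fell with MMS, at -2.66 ± 0.09 in ∆hel2 cells and -1.61 ± 0.08 in wild-type cells, and the interaction was -1.04 ± 0.12 (edgeR, adjusted p = 2.76e-05). DOM34, whose product opens stalled ribosomes with Hbs1, had 20.7, 20.7 and 19.2 CPM in treated ∆hel2 cells, against 8.53, 12.9 and 13.3 CPM in treated wild-type cells. DOM34 fell with MMS by 0.96 ± 0.17 in wild-type cells (adjusted p = 0.000234), and its -0.07 ± 0.17 in ∆hel2 cells did not pass (adjusted p = 0.718). For DOM34 the interaction was 0.89 ± 0.24 (adjusted p = 0.0104).

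Of the 7 genes grouped here under sensing, MBF1, whose product keeps collided ribosomes in frame, was the 1 that rose. MBF1 had 1384, 1376 and 1504 CPM in treated and 579, 672 and 618 CPM in untreated ∆hel2 cells, and 1307, 1106 and 1221 CPM in treated and 473, 453 and 466 CPM in untreated wild-type cells. It rose by 1.19 ± 0.09 in ∆hel2 cells and 1.38 ± 0.09 in wild-type cells (edgeR, adjusted p = 4.15e-08 and 1.46e-08). Of the others, 5 fell in ∆hel2 cells (SYH1, SMY2, NEW1, GCN1 and GCN20) and 6 in wild-type cells, with GCN2 the sixth. Among all genes 39.2% rose and 36.2% fell in ∆hel2 cells, and 35.6% rose and 34.2% fell in wild-type cells. NEW1, a gene of a translation ATPase, fell, at -2.15 ± 0.09 in ∆hel2 cells and -1.35 ± 0.08 in wild-type cells, with an interaction of -0.80 ± 0.12 (adjusted p = 0.000217).

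Without MMS, 5 of the 26 genes were called between the strains, of which MBF1 (0.43 ± 0.09), UFD1 (0.34 ± 0.10) and NPL4 (0.33 ± 0.08) were higher in ∆hel2 cells, and RLI1 (-0.31 ± 0.08) and ARB1 were lower (edgeR, adjusted p = 0.00989, 0.0483, 0.0252 and 0.0338 for the first 4). Of all genes 8.57% were called there, 5.25% higher and 3.33% lower. MBF1 kept its call in 18 of 18 alternatives, NPL4 in 11 of 18, RLI1 in 9 of 18 and UFD1 in 6 of 18. Leaving out any 1 of the untreated WT libraries lost the call for NPL4, RLI1 and UFD1 alike. The count of 5 ranged over 1 to 10 when single libraries were left out, with 10 without WT MMS replicate 1 and 1 without ∆hel2 replicate 1, ∆hel2 replicate 2 or any 1 of the WT libraries. It was 2 without ∆hel2 MMS replicate 1 or 2, and 3 without replicate 3 of ∆hel2 MMS or of ∆hel2.

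**Figure D5:**
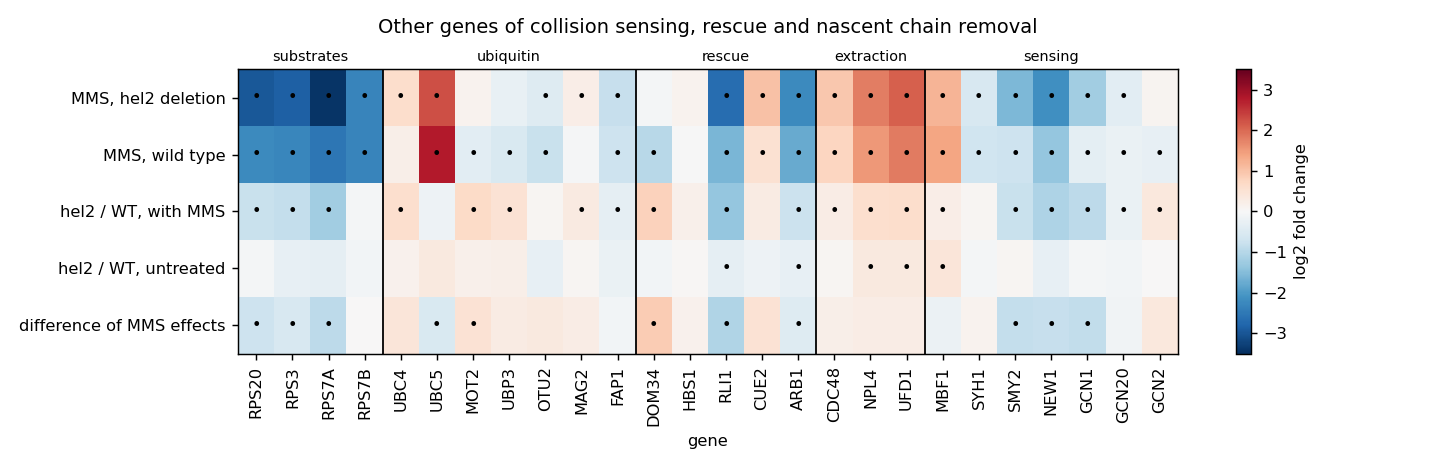
Log2 fold change (colour) of the 26 further pathway genes, grouped by role, in 5 comparisons (rows); dots mark an adjusted p under 0.05. In the rows for MMS in ∆hel2 and in wild-type cells, the 4 marked ribosomal protein genes are blue, from -3.44 to -2.24, and the 3 extraction genes are red, from 0.75 to 2.10.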

How the data were processed

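RNA of 12 cultures was extracted with hot phenol and selected with oligo-dT, per the labels' protocols. The authors deposited whole read counts per gene. Named tools are STAR 2.5.1a, featureCounts 1.4.6-p5 (Subread) and Salmon, per the submitters' processing notes. Genome build, annotation, strand setting and handling of multiply aligned reads: not given in the sources used here. Of 7230 lines, those of 97 identifiers repeated with equal counts were used once, which left 7109. RefSeq (R64) supplied 6042 symbols, gene lengths and neighbours.

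The counts were tested with edgeR 4.0.16 in R 4.3.3 (TMM, filterByExpr, robust glmQLFit) on all 12 libraries, without a block, and p-values were adjusted over 6463 genes by Benjamini-Hochberg. The SE is the absolute log2 fold change divided by the square root of F. Replicates differed by more than counting noise (lowest chi-square per degree of freedom 65). How the labelled biological replicates were separated is not stated, and p-values measure the spread between them.

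The 9 members, the 26 further genes, tests and alternatives were chosen with earlier results of these data known. Named by rule were the members, RPS20, RPS3, RPS7A, RPS7B, CDC48, MBF1, up to 3 further pathway genes per comparison with the largest change among those called, chromosome neighbours, strain markers, and the 2 genes of most similar profile (mean log2 CPM at least 4). Any other gene was named with its values known. Each fit was repeated with RLE (median-ratio) factors, with library sizes alone, with DESeq2 1.42.0, unfiltered, with a replicate block, on only the compared libraries, and without each library. The procedure was tested on simulated data.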

Additional observations from a re-analysis of the deposited data

Results flagged for a closer look

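In the fit on all 12 libraries, a different effect of MMS in ∆hel2 and wild-type cells was called for the genes below. The deleted HEL2 is listed as a call only. The test was that of the difference itself (edgeR, adjusted p under 0.05, ∆hel2 effect minus wild-type effect on the log2 scale). Among the quality control genes those called were RQT4 at 1.39, CUE3 at 0.78, RQC1 at 0.39 and ASC1 at -1.30. HEL2 was also called, at 0.83, but this value rests on 19 to 39 counts per library in the deletion strain. It is no measure of a response there. The call of HEL2 held in 12 of 17 alternatives. It was lost without ∆hel2 MMS replicate 1 (0.0706) or 2 (0.0748), ∆hel2 replicate 2 (0.0677) or 3 (0.0792), or WT replicate 3 (0.0559). Of the 26 further pathway genes 11 were called: DOM34 was at 0.89, MOT2 at 0.50, ARB1 at -0.45, UBC5 at -0.53, RPS3 at -0.56, RPS20 at -0.72, NEW1 at -0.80, SMY2 at -0.83, GCN1 at -0.86, RPS7A at -0.91 and RLI1 at -1.04. Of the 16 chromosome neighbours 9 were called: NTR2 was at 1.33, YGL108C at 1.17, MGR3 at 0.84, YTA7 at 0.57, PEX10 at 0.33, RET3 at -0.31, HEM12 at -0.44, DBP7 at -0.49 and TPI1 at -1.17. The call of DBP7 was lost under library-size scaling (0.392) and without ∆hel2 MMS replicate 3 (0.0503). Of 17 alternatives, the call held in 5 for UBC5, 13 for YGL108C, 14 for RQC1 and 16 each for RPS20 and RPS3. It held in all 17 for RQT4, CUE3, ASC1, DOM34, NEW1, RPS7A, RLI1 and NTR2. MOT2, ARB1, SMY2, GCN1, MGR3, YTA7, PEX10, RET3, HEM12 and TPI1 were not followed through the alternatives. In the same test 40% of all genes were called.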

How the results depend on the processing

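The MMS effects of ASC1 in both strains, those of RQT4, CUE3 and RQC2 in ∆hel2 cells, and the strain differences of ASC1, RQT4, CUE3 and VMS1 under MMS kept their direction and call under every alternative run. Members called with MMS in wild-type cells numbered 5, or 3 under library-size scaling. All genes called there numbered 4515, or 4352 under library-size scaling. Without MMS, members called numbered 1, or 2 with only the compared libraries and 1 to 3 with single libraries left out (3 without WT MMS replicate 1). Further pathway genes called there numbered 5, or 2 under library-size scaling, 9 with DESeq2, 2 with the replicate block and 1 to 10 with libraries left out. All genes called there numbered 554, or 839 with DESeq2 and 305 to 1163 with libraries left out: 1163 without WT MMS replicate 1, 336 and 329 without ∆hel2 replicates 1 and 2, and 312, 305 and 319 without WT replicates 1, 2 and 3. With libraries left out, members called between strains under MMS numbered 5 to 8 (5 without ∆hel2 MMS replicate 3). Members called for the interaction of strain and MMS then numbered 3 to 5 (3 without WT replicate 3). All genes called then numbered 3581 to 4002 between strains under MMS and 2193 to 2828 for the interaction.

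Directions turned in values that were not called, apart from RKR1. Under library-size scaling these were, for MMS in ∆hel2 cells, RKR1 0.12 and DOM34 0.48. For MMS in wild-type cells they were RQT4 0.00, RQC1 0.20, VMS1 0.10, NTR2 0.10 and YGL108C 0.27. Between strains under MMS they were RKR1 0.17, RPS7B 0.23 and UBC5 0.18. Between untreated strains they were CUE3 0.04, RQT4 0.09, RKR1 0.04, RPS20 0.04, RPS7B 0.02, DOM34 0.02 and NTR2 0.05. For the interaction they were SLH1 0.12, RKR1 0.12 and MBF1 0.06. SLH1 between strains under MMS was -0.05 with RLE, -0.05 with DESeq2 and 0.00 with only the compared libraries, and was called under library-size scaling (0.35, adjusted p = 0.0154). RPS7B in the interaction was -0.03 with RLE and -0.03 with DESeq2.

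With single libraries left out, values crossed 0 for MMS in ∆hel2 cells in DOM34 (-0.15 to 0.07), and for MMS in wild-type cells in CUE3 (-0.09 to 0.23) and YGL108C (-0.31 to 0.07). Between strains under MMS they did so in SLH1 (-0.02 to 0.05) and RPS7B (-0.29 to 0.11). Between untreated strains they did so in CUE3 (-0.13 to 0.04), RQT4 (-0.10 to 0.05), VMS1 (-0.05 to 0.21), NTR2 (-0.19 to 0.06) and YGL108C (-0.09 to 0.42). For the interaction they did so in RQC2 (-0.01 to 0.39) and RPS7B (-0.20 to 0.19). The cause was not tested.

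What a shared replicate number means is not stated. Of 18 pairs of libraries with the same number, 1 deviated together at a correlation over 0.1 (0.242), the lowest was -0.382, and 3 of 12 libraries were closest to their own number, so the numbers were not taken as pairs. With the replicate block all genes called without MMS numbered 402, against 554. MBF1 lost its call between strains under MMS (0.23, edgeR adjusted p = 0.0619), RLI1 and UFD1 theirs without MMS (0.0646 and 0.0674), and UBC5 its interaction (0.0719). With 3 libraries a group, ratio tests cannot pass a p of 0.05.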
